A study of Nothobranchius furzeri with 9 samples.

Results

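Skeletal muscle of old and of adult *Nothobranchius furzeri* (*Nfu*), the turquoise killifish, was compared by sequencing of total RNA. This annual fish lives for a few months and is used as a vertebrate model of aging. The old fish were 35 weeks and the adult fish 20 weeks of age by the labels, with 3 libraries at each age, and 3 young fish of 5 weeks entered the filter on low values and the estimate of the spread. All fish were males of the wild-derived strain MZM-04/10. No transgene or treatment is named for them, and the study's methods state that they were fasted and killed at the same hour of the morning. Each library came from the whole muscle of 1 fish, so that p-values measure the spread between these fish. The members of the comparison were all entries of the deposited table, genes and non-coding RNAs alike, with a mean of at least 5 normalized counts over the 9 libraries, which were 17454 of 39396 entries. In a whole tissue, fewer cells of a type and less RNA per cell cannot be told apart.

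A muscle fiber contracts when calcium leaves its internal store through ryanodine receptors and lets myosin pull on the thin filaments. The mass and the fuel use of a fiber are set by hormones: insulin and growth factors favor growth, whereas glucocorticoids, the steroids of stress and fasting, bind a nuclear receptor that switches on genes such as KLF9, TSC22D3 and the arrestin-domain genes ARRDC2 and ARRDC3. In mammals several of these targets, together with the FOXO transcription factors, restrain growth and release amino acids in fasted muscle, and the glucocorticoid level also follows the daily clock.

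The values are normalized counts, which are the reads of an entry scaled library by library and then rounded. Where a name has several entries the number of the entry is given, since the division of reads between copies of a gene is uncertain. The reads on genes, estimated from the spacing of these values, were about 7.96 to 12.71 M in old and 11.76 to 14.23 M in adult libraries. In libraries with a scaling factor above 1, which include all adult ones, several read numbers round to the same value, so that the reads of a single entry cannot be recovered there. Old libraries held 23272 to 23653 entries above 0 and adult libraries 24384 to 25093, without overlap (exact permutation test, two-sided p = 0.1, the smallest that 3 against 3 libraries allow). The defining genes of muscle were abundant throughout, with 195864 to 250473 normalized counts of MYLPF (fast myosin light chain) in old and 124944 to 233887 in adult libraries, and with 95945 to 120800 of CKM (muscle creatine kinase, sum of its 2 entries) in old and 77608 to 95760 in adult libraries. Rank correlations over the tested entries were 0.915 to 0.929 between old libraries and 0.943 to 0.953 between adult ones. Of the adult libraries, replicate 1 lay nearest to the old ones (0.922 to 0.936) and replicate 2 farthest from them (0.888 to 0.904). The 20 most abundant entries took 56.9 to 60.6% of the normalized counts in old and 49.8 to 59.2% in adult libraries, with adult replicate 2 the lowest.

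Each entry was tested on log2(value + 1) with limma, and it is termed called where the p adjusted after Benjamini and Hochberg was 0.05 or less and the change 2-fold or more. Of the tested entries 364 were called (2.09%), 144 higher (0.825%) and 220 lower (1.26%) in old muscle. With no limit on the fold change 462 entries passed (2.65%). Unadjusted p-values under 0.05 were found for 20.4% of entries, and the values of the 2 ages did not overlap for 21%. The median log2 fold change over all tested entries was -0.01, against 1.53 among the entries called higher and -1.75 among those called lower. The changes went beyond 4-fold (a log2 of 2) for 41 higher and 89 lower entries. The lower calls included 29 entries at 3 or fewer normalized counts in each old library, 10 of them at 0, and the higher calls included 11 entries at 3 or fewer in each adult library. Names beginning with NFURG, which carry no gene symbol, were called for 5.34% of 206 tested entries, gene symbols for 1.9% of 14616, long non-coding names for 1.85% of 1186 and Rfam families of non-coding RNA for 1.65% of 121.

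**Figure D1:**
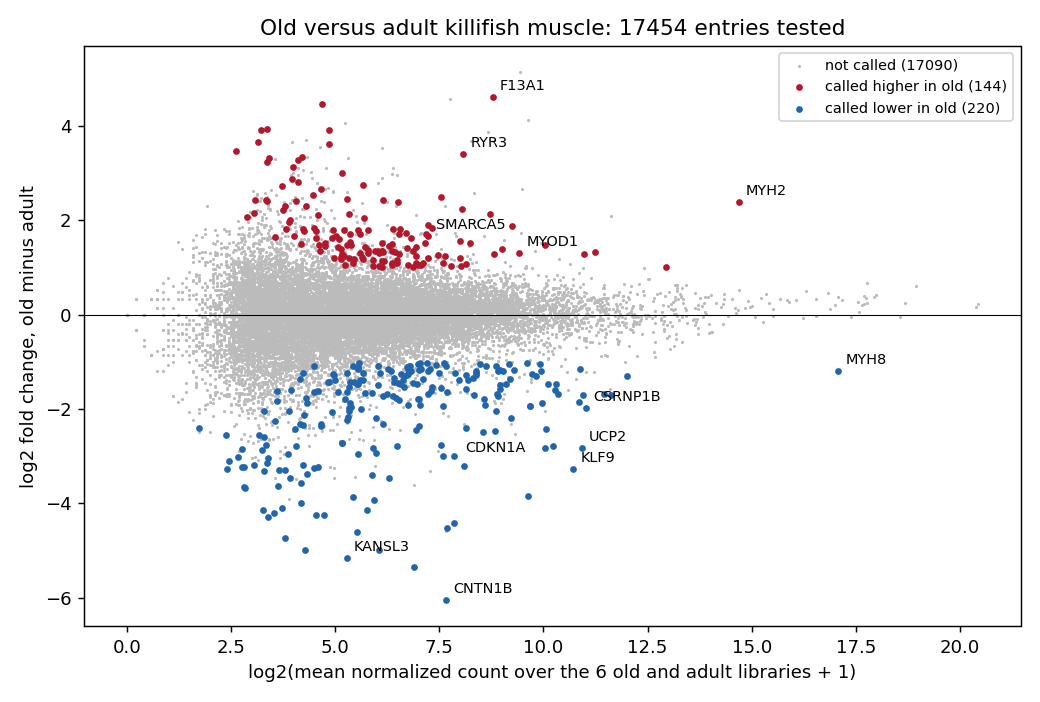
Change between old and adult muscle (y axis, log2 fold change, old minus adult) against the level (x axis, log2 of the mean normalized count of the 6 old and adult libraries + 1) for the 17454 tested entries, with called entries in color and some genes named. The 144 entries called higher and the 220 called lower spread over low and high levels, and KLF9, UCP2 and CDKN1A lie among the lower ones at log2 fold changes of -3.27, -2.83 and -2.83.

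Of the 54 gene lists, that of genes that respond to glucocorticoids had the most calls. The lists were chosen with earlier results of these data known, so this rank is no independent evidence. Of 43 tested entries of this list 12 were called lower and 1 higher in old muscle (30.2%, against 2.09% of all tested entries). The median log2 fold change was -0.66. Summed over the 53 entries of the list, the old libraries held 13163, 15012 and 17219 normalized counts, against 30644, 34329 and 32721 in the adult libraries. The groups did not overlap, and old replicate 3, the highest of the old libraries, was still well under every adult library.

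KLF9, a zinc-finger factor that glucocorticoids induce, had 170, 363 and 485 normalized counts in old and 2591, 3459 and 3024 in adult libraries. The highest old value was under every adult one by far, and the log2 fold change was -3.27 (standard error 0.30, adjusted p = 0.00111). ARRDC2, which in mammals is raised in muscle that loses mass, had 146, 351 and 505 in old and 1875, 2067 and 2216 in adult libraries (log2 fold change -2.79, standard error 0.46, adjusted p = 0.0129). For ARRDC3A, a related adaptor for the breakdown of receptors, the values were 443, 334 and 234 in old and 1407, 2247 and 1697 in adult libraries (-2.42, standard error 0.27, adjusted p = 0.00186). All 3 genes were low in each old fish, with old replicate 1 the lowest for KLF9 and ARRDC2 and old replicate 3 for ARRDC3A.

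TSC22D3 encodes GILZ, an anti-inflammatory leucine zipper protein, and its 3 entries differed. Entry 307238 had 175, 254 and 237 normalized counts in old and 542, 923 and 715 in adult libraries (log2 fold change -1.69, standard error 0.22, adjusted p = 0.00403). Entry 484773 had 331, 405 and 716 in old and 1290, 1190 and 1070 in adult libraries, with no overlap but without a call (-1.36, adjusted p = 0.0598), and entry 837650 had 722, 544 and 439 against 496, 530 and 477 (0.15, adjusted p = 0.694). SIK1, a kinase induced by hormones and by calcium that is also counted with the immediate-early genes, was lower with 476, 607 and 806 in old and 2191, 1816 and 1919 in adult libraries (-1.68, standard error 0.21, adjusted p = 0.00378). ZBTB16B entry 826927, whose mammalian counterpart PLZF is a sensitive target of steroid receptors, had 490, 243 and 306 in old and 889, 1575 and 1435 in adult libraries (-1.93, adjusted p = 0.00643). ZBTB16B entry 360229 was not called (log2 fold changes of -0.43 to -0.06 over the 9 fits without 1 library).

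Further down in level, CEBPD, a factor of the acute phase, had 81, 103 and 289 normalized counts in old and 612, 914 and 730 in adult libraries (log2 fold change -2.46, adjusted p = 0.0264). DDIT4 entry 802817, also known as REDD1 and a brake on the growth kinase mTOR, had 38, 28 and 51 in old and 123, 134 and 125 in adult libraries (-1.72, adjusted p = 0.0304). FKBP5, a chaperone of the glucocorticoid receptor and the most abundant member of the list, was not called: it had 1312, 2730 and 4507 in old and 4066, 6409 and 4965 in adult libraries, so that old replicate 3 reached into the adult range (-1.0, adjusted p = 0.17). BCL6, a repressor of transcription, was the member called higher, with entry 860137 at 117, 127 and 117 in old and 75, 53 and 44 in adult libraries (1.09, adjusted p = 0.0388). BCL6 entry 357551 was not called (log2 fold changes of -1.42 to 1.17 over the 9 fits without 1 library). Without adult replicate 2 or without adult replicate 3, 6 entries of the list were called lower in place of 12, and 0 were called higher. The calls of KLF9, ARRDC3A, SIK1, TSC22D3, ZBTB16B and SESN1 held in each of the 9 fits that left out 1 library. SESN1 was not called with the 6 old and adult libraries alone. The calls of ARRDC2, CEBPD and DDIT4 were lost without either of these adult libraries (highest adjusted p 0.0669, 0.115 and 0.118), those of CEBPD and DDIT4 also without old replicate 1 or 2, and that of BCL6 entry 860137 was kept only without adult replicate 1 or young replicate 1 (up to 0.141 in the other fits).

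Immediate-early genes, which respond within minutes to nerve activity, hormones or stress, were called lower for 6 of 28 tested entries and higher for 0. This was 21.4%, against 2.09% of all tested entries, and their median log2 fold change was -0.84. The sums over the list were 5178, 5822 and 5087 normalized counts in old and 13343, 10462 and 11308 in adult libraries. CSRNP1B and CSRNP1A encode serine-rich nuclear proteins of transcription. CSRNP1B had 760, 766 and 995 in old and 3709, 3323 and 2902 in adult libraries (log2 fold change -1.98, standard error 0.17, adjusted p = 0.000642). CSRNP1A had 39, 42 and 52 in old and 472, 190 and 312 in adult libraries (-2.76, standard error 0.31, adjusted p = 0.00211). The values of both paralogs lay close together in the old fish and wide apart from the adult ones. KLF6, a zinc-finger factor, had 233, 361 and 319 in old and 811, 627 and 605 in adult libraries (-1.17, adjusted p = 0.0111), and without old replicate 1 its change was under 2-fold (-0.99). The orphan nuclear receptor NR4A3, which exercise induces in mammalian muscle, had 154, 171 and 160 in old and 1033, 318 and 930 in adult libraries (-2.05, adjusted p = 0.0331). This call was kept only without adult replicate 2, young replicate 1 or young replicate 2 (adjusted p up to 0.125 in the other fits). The classic members FOS and JUN, which form the factor AP-1, were not called: FOS entry 762379 had 11, 4 and 6 in old and 4, 7 and 7 in adult libraries (0.13), and JUN entry 457569 had 409, 44 and 48 in old and 149, 142 and 129 in adult libraries (-0.54, although the mean was higher in old fish), with old replicate 1 far above the other old fish. Without adult replicate 2 and without adult replicate 3, 5 and 4 of these entries were called lower.

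In the circadian clock list 4 of 41 tested entries were called lower and 0 higher (9.76%, against 2.09% of all tested entries), with a median log2 fold change of -0.20. All of them belong to the repressing arm of the clock. BHLHE40, a repressor that light and hormones can induce, was lower with both entries: entry 977955 had 567, 502 and 794 normalized counts in old and 1571, 1696 and 2342 in adult libraries (-1.59, adjusted p = 0.00403), and entry 70007 had 37, 67 and 22 in old and 116, 127 and 152 in adult libraries (-1.76, adjusted p = 0.0226). NR1D2, the nuclear receptor REV-ERB beta, had 37, 34 and 40 in old and 379, 125 and 155 in adult libraries with entry 544560 (-2.37, standard error 0.36, adjusted p = 0.00896). A further NR1D2 entry, 916397, had 66, 209 and 143 in old and 335, 340 and 374 in adult libraries and was not called (-1.47, adjusted p = 0.0529). Of 4 CRY1 entries, 565713 was lower with 33, 20 and 3 in old and 86, 115 and 100 in adult libraries (-2.83, adjusted p = 0.0373), a call kept only without old replicate 1 or 3 (adjusted p up to 0.142 in the other fits), while the more abundant entry 786939 had 194, 146 and 264 against 164, 160 and 122 (0.41, adjusted p = 0.336). The number of clock entries called lower was 2 without adult replicate 2 or without adult replicate 3 and 7 without old replicate 2, and BHLHE40 entry 70007 was lost without either of these adult libraries (adjusted p up to 0.0947).

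**Figure D2:**
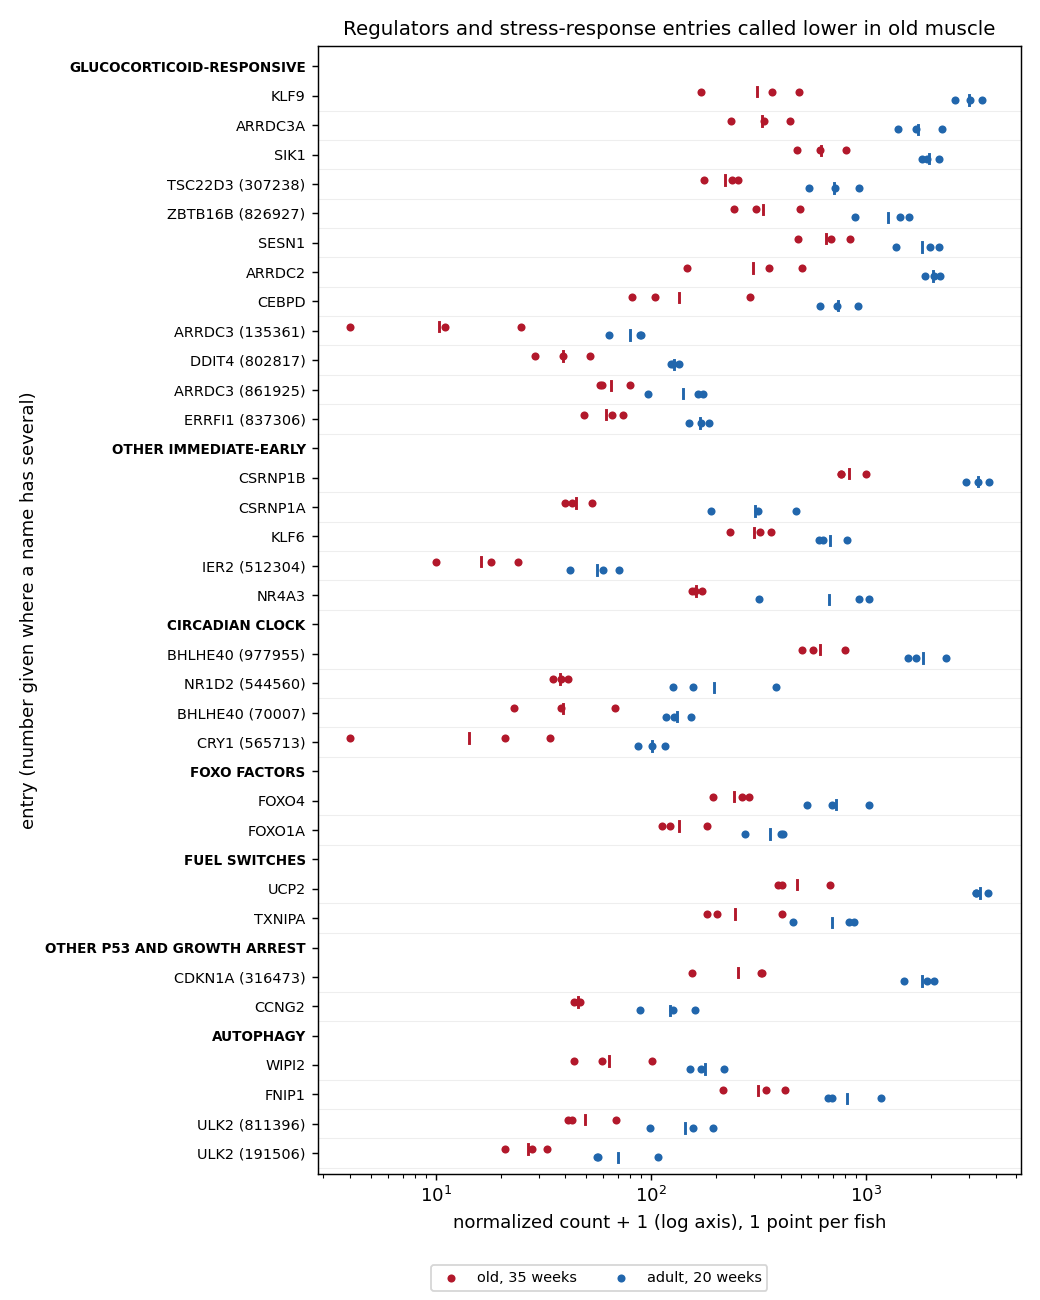
Normalized counts + 1 (x axis, log scale) of regulators that were lower in old muscle, with 1 point per fish, the old group drawn above the adult group for each gene and a tick at the geometric mean of value + 1. For KLF9 the old fish lie at 170 to 485 and the adult fish at 2591 to 3459, and for each gene shown every old point lies left of every adult point.

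In the list of p53 and senescence genes 4 of 46 tested entries were called lower and 0 higher (8.70%, against 2.09% of all tested entries). The median log2 fold change was -0.07, and the summed level was 10761 to 12383 in old and 15550 to 17075 in adult libraries. CDKN1A, the cyclin-dependent kinase inhibitor p21 and a marker of senescence, had with entry 316473 values of 154, 324 and 326 normalized counts in old and 1926, 1493 and 2063 in adult libraries (log2 fold change -2.83, standard error 0.38, adjusted p = 0.00433). SESN1, a stress-induced inhibitor of mTOR, had 689, 840 and 479 in old and 1379, 2188 and 1975 in adult libraries (-1.47, standard error 0.22, adjusted p = 0.00846). CCNG2, a cyclin that goes with arrest and is a FOXO target in mammals, had 45, 46 and 43 in old and 88, 160 and 126 in adult libraries (-1.42, adjusted p = 0.0343). The levels of CCNG2 were nearly the same in the 3 old fish. CCNG1, a p53 target, pointed the other way without passing the test (1773, 1699 and 843 in old and 824, 366 and 364 in adult libraries, log2 fold change 1.51, adjusted p = 0.107). Without adult replicate 2 or without adult replicate 3, 2 of the entries of this list were called, CDKN1A and SESN1, and CCNG2 was lost (adjusted p up to 0.146) as it was without any 1 old library or young replicate 3.

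The FOXO factors, which drive genes of protein breakdown when insulin is low, were lower with 2 members. FOXO4 had 193, 263 and 283 normalized counts in old and 532, 1030 and 695 in adult libraries (log2 fold change -1.57, standard error 0.27, adjusted p = 0.0152). FOXO1A had 121, 111 and 181 in old and 399, 410 and 273 in adult libraries (-1.39, standard error 0.26, adjusted p = 0.0207). They were the calls among 42 tested entries of atrophy ligases and FOXO factors (4.76%, against 2.09% of all tested entries), whose median was -0.02. ZFAND5A, a protein that activates the proteasome in wasting muscle of mammals, was lower outside that list with 986, 768 and 1014 in old and 2339, 3935 and 2876 in adult libraries (-1.70, standard error 0.21, adjusted p = 0.00327). Of the autophagy and lysosome genes 4 of 63 tested entries were called lower and 0 higher (6.35%, against 2.09% of all tested entries), with a median of -0.23. These were WIPI2, which builds the autophagosome, FNIP1, a regulator of AMPK and mTOR, and both entries of ULK2, a kinase that starts autophagy, at log2 fold changes of -1.54 to -1.37. All 4 were lost without adult replicate 2 and without adult replicate 3 (adjusted p up to 0.165), WIPI2 and FNIP1 also without old replicate 3, FNIP1 without old replicate 2, and the ULK2 entries 811396 and 191506 without old replicate 1 or 2 or young replicate 3 as well, 191506 without every library but adult replicate 1. Of the FOXO calls, that of FOXO4 was lost without either of these libraries (up to 0.0659) and that of FOXO1A without adult replicate 2 (0.0892). None of 47 proteasome subunits was called, and their median log2 fold change was 0.02, or -0.14 with equal library totals.

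Among genes of insulin, growth factors and mTOR, 2 of 90 tested entries were called higher and 2 lower (4.44%, against 2.09% of all tested entries). The lower ones were the mTOR brakes SESN1 and DDIT4. The higher ones were GSK3B, a kinase that insulin inhibits, with 132, 219 and 150 normalized counts in old and 91, 58 and 83 in adult libraries for entry 459015 (log2 fold change 1.09, adjusted p = 0.0331), and PIK3R3, a regulatory subunit of PI3 kinase, with 108, 124 and 276 in old and 75, 54 and 55 in adult libraries for entry 968147 (1.34, adjusted p = 0.0431). Both calls were kept only without old replicate 1 or adult replicate 1 and had their highest adjusted p without adult replicate 2 (0.132 and 0.157). They were also lost with equal library totals (adjusted p = 0.0505 for GSK3B and 0.105 for PIK3R3) and with the 6 old and adult libraries alone (0.12 and 0.154). GSK3B entry 54998 and PIK3R3 entries 82772 and 957352 were not called. Over the 9 fits without 1 library their log2 fold changes were 0.38 to 0.83, 0.43 to 0.75 and -0.46 to 0.74. MKNK2B, a kinase that phosphorylates the cap-binding factor EIF4E and one of the 5 most abundant lower entries, had 1596, 1244 and 1105 in old and 3135, 5507 and 4305 in adult libraries (-1.69, standard error 0.25, adjusted p = 0.00841). EIF4E itself has 2 entries, of which 674790 was higher, at 52, 86 and 56 in old and 18, 9 and 15 in adult libraries (2.14, adjusted p = 0.00471), and 198590 was not called (207, 210 and 182 in old, 178, 167 and 256 in adult libraries, 0.02, adjusted p = 0.967).

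Of 24 tested entries of fuel switches 2 were called lower and 0 higher (8.33%, against 2.09% of all tested entries), with a median log2 fold change of -0.23. These were UCP2 and TXNIPA. UCP2, an uncoupling carrier of the inner mitochondrial membrane that goes with the use of fatty acids, had 404, 387 and 682 normalized counts in old and 3235, 3257 and 3687 in adult libraries (log2 fold change -2.83, standard error 0.28, adjusted p = 0.00137). TXNIPA, an inhibitor of glucose uptake, had 181, 201 and 406 in old and 456, 831 and 877 in adult libraries (-1.49, adjusted p = 0.0368). Among 29 tested regulators of mitochondrial biogenesis 1 was called higher and 1 lower (6.9%, against 2.09% of all tested entries). The lower one was PPARGC1A, the coactivator PGC-1 alpha, which had 466, 528 and 529 in old and 1087, 1067 and 1710 in adult libraries (-1.31, adjusted p = 0.0331). The old values of PPARGC1A were close to each other, and for both UCP2 and PPARGC1A every old fish lay under every adult fish. GLS2, a mitochondrial glutaminase, had 160, 196 and 149 in old and 489, 659 and 626 in adult libraries for entry 220820 (-1.80, standard error 0.19, adjusted p = 0.00137), and SLC25A30, a mitochondrial carrier, had 172, 178 and 185 in old and 387, 442 and 544 in adult libraries (-1.34, standard error 0.16, adjusted p = 0.00295). GLS2 entry 706372 was not called (log2 fold changes of -0.49 to 0.25 over the 9 fits without 1 library). LPL, which releases fatty acids from lipoproteins, was lower with entry 704965 (262, 334 and 329 in old, 479, 997 and 731 in adult libraries, -1.20, adjusted p = 0.0468). LPL entry 704987 was not called (log2 fold changes of -0.82 to -0.56 over the 9 fits without 1 library). The calls of UCP2, GLS2 and SLC25A30 held in each fit without 1 library, whereas PPARGC1A was called only without adult replicate 1, young replicate 1 or young replicate 3, TXNIPA only without old replicate 3 or adult replicate 1, and LPL only without adult replicate 1 or young replicate 2 (adjusted p up to 0.124, 0.146 and 0.168 in the other fits).

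In the main pathways of energy supply no entry was called. This held for 61 glycolysis entries, 23 citric acid cycle entries and 55 respiratory chain subunits, against 2.09% of all tested entries. At that share few calls fall in lists of this size, so their absence says little. The medians were 0.02 (-0.13 with equal library totals), 0.18 and 0.19 log2, and among the respiratory subunits 10 had old values entirely above and 0 entirely below the adult ones (all tested entries: 10.7% above and 10.3% below). ATP5A1, a subunit of ATP synthase, was one of these, with 3011, 3037 and 2822 normalized counts in old and 2451, 2206 and 2710 in adult libraries for entry 861350 (log2 fold change 0.27, adjusted p = 0.301). With equal library totals, where the median of all entries moved from -0.01 to -0.17, the median of the respiratory subunits was 0.03. Among the glycolytic enzymes ALDOAA, muscle aldolase, had 140376, 188989 and 60532 in old and 139513, 80431 and 112172 in adult libraries (0.12, adjusted p = 0.892), so that the old fish spanned the adult range. MFSD2A, a lipid transporter, was higher with entry 613194 (33, 27 and 35 in old, 5, 5 and 7 in adult libraries, 2.30, standard error 0.30, adjusted p = 0.00413). Its entries 413316 and 770509 were not called. Over the 9 fits without 1 library their log2 fold changes were 2.13 to 4.13 and -1.73 to -0.7. The lactate carrier SLC16A3 had 13, 28 and 23 in old and 3, 5 and 3 in adult libraries (2.22, adjusted p = 0.0204), and it was lost without old replicate 2 or 3 or adult replicate 3 (adjusted p up to 0.0814). TIMM44, a motor part of mitochondrial protein import, was higher with entry 704710 (35, 82 and 69 in old, 20, 15 and 17 in adult libraries, 1.70, adjusted p = 0.0142), and this call was lost without adult replicate 2 or 3 (adjusted p up to 0.0673). TIMM44 entry 577500 was not called (log2 fold changes of 0.37 to 0.47 over the 9 fits without 1 library).

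In the contractile apparatus 2 myosin heavy chain genes moved in opposite directions. MYH2, a fast heavy chain by its name, had 39589, 48785 and 39833 normalized counts in old and 18475, 3893 and 7534 in adult libraries (log2 fold change 2.38, standard error 0.46, adjusted p = 0.0242). MYH8, named for a chain of developing mammalian muscle, had 82549, 82042 and 83167 in old and 162085, 160810 and 260065 in adult libraries with entry 144749 (-1.20, standard error 0.27, adjusted p = 0.042). The old values of this MYH8 entry were almost equal. Another entry of that name, 459128, had 240296, 331165 and 161741 in old and 264608, 117061 and 196302 in adult libraries (0.36, adjusted p = 0.613). Since fish myosin genes form a large family of near copies and ambiguous reads were not counted, the division between entries of this family is uncertain. Over the list, 1 of 39 tested entries was called higher and 1 lower (5.13%, against 2.09% of all tested entries), with a median of -0.31. The call of MYH2 was lost without old replicate 2 or 3 and without adult replicate 2 or 3 (adjusted p up to 0.0947), and that of MYH8 was kept only without adult replicate 1 (up to 0.144 in the other fits).

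XIRP1, an actin-binding protein of the fiber ends and a marker of remodeling, was lower with entry 962650 (1003, 2037 and 1396 normalized counts in old, 5445, 3319 and 5555 in adult libraries, log2 fold change -1.71, standard error 0.31, adjusted p = 0.0205). It was the call among 88 tested entries of the thin filament, Z-disc and titin-nebulin scaffold (1.14%, against 2.09% of all tested entries). Their median was 0.15 (-0.02 with equal library totals). The call of XIRP1 entry 962650 was lost without old replicate 3 or adult replicate 3 (adjusted p up to 0.0881). XIRP1 entry 25094 was not called (log2 fold changes of -0.74 to -0.16 over the 9 fits without 1 library). The giant spring protein TTN made up 25.4 to 27.1% of normalized counts in old and 22.6 to 29.6% in adult libraries (exact permutation test, two-sided p = 0.8). A fast troponin entry, TNNI2 195942, had 1165, 1276 and 676 in old and 605, 122 and 365 in adult libraries without a call (1.74, adjusted p = 0.0689).

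Of the genes that release and take up calcium, 1 of 68 tested entries was called higher and 0 lower (1.47%, against 2.09% of all tested entries). The median log2 fold change was 0.21. RYR3, a ryanodine receptor, has 9 entries in the table. Entry 18846 had 283, 791 and 407 normalized counts in old and 72, 30 and 33 in adult libraries (3.41, standard error 0.44, adjusted p = 0.00402). The entry that carried most of the gene's reads, 332368, had 44507, 54588 and 41683 in old and 45462, 23619 and 37496 in adult libraries (0.44, adjusted p = 0.35), so that the called entry is a small fraction of the signal under that name. RYR3 entries 18833 and 502559 pointed down without a call (-3.08 to -1.79 and -2.02 to -1.02 over the 9 fits without 1 library). Entries 601736, 332258 and 332548 were not called either (-0.04 to 0.46, 0.28 to 0.81 and 0.09 to 0.58). The beta subunits of the sodium pump, which restores the resting potential after each action potential, were higher with ATP1B1 entry 921793 (583, 499 and 269 in old, 193, 98 and 169 in adult libraries, 1.53, adjusted p = 0.0313) and ATP1B2B (41, 59 and 43 in old, 19, 8 and 18 in adult libraries, 1.67, adjusted p = 0.0368). The most abundant other ATP1B1 entry, 302202, had 215, 278 and 205 in old and 334, 289 and 279 in adult libraries (-0.38, adjusted p = 0.219). The call of RYR3 held in each fit without 1 library, ATP1B1 was lost without old replicate 1 or 2, adult replicate 2 or 3 or young replicate 3, and ATP1B2B was kept only without adult replicate 1 or young replicate 2, with the highest adjusted p of both without adult replicate 2 (0.122 and 0.125).

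Of 49 tested entries of myogenic regulators and satellite cell genes 3 were called higher and 0 lower (6.12%, against 2.09% of all tested entries). The median log2 fold change was 0.15, or -0.01 with equal library totals. MYOD1, the determination factor of the myogenic family, had 1044, 1120 and 731 normalized counts in old and 572, 278 and 354 in adult libraries. MYOG, myogenin, which drives differentiation, had 376, 197 and 267 in old and 87, 130 and 129 in adult libraries. The log2 fold changes were 1.31 for MYOD1 (standard error 0.25, adjusted p = 0.0226) and 1.25 for MYOG (standard error 0.24, adjusted p = 0.0235). HEY1, a Notch target that keeps satellite cells quiescent in mouse, was higher with entry 180804 (18, 25 and 25 in old, 5, 5 and 5 in adult libraries, 1.96, standard error 0.28, adjusted p = 0.00643), while its more abundant entry 554097 had 72, 103 and 52 against 98, 100 and 112 (-0.50, adjusted p = 0.297). With equal library totals the call of MYOG was lost (1.08, adjusted p = 0.0913), and in the fit of the 6 old and adult libraries alone 0 entries of the list were called. KLHL40, which stabilizes thin filaments in mammals, was higher by less than 2-fold with 2095, 2232 and 1967 in old and 1127, 1324 and 1285 in adult libraries (0.75, standard error 0.14, adjusted p = 0.0216). Without adult replicate 3 the adjusted p of KLHL40 was 0.0802. MUSTN1 entry 964490, a small nuclear protein of regenerating muscle, was lower with 67, 120 and 110 in old and 217, 366 and 345 in adult libraries (-1.64, adjusted p = 0.0159). MUSTN1 entry 8661 was not called (log2 fold changes of -0.52 to -0.15 over the 9 fits without 1 library). Without adult replicate 2 and without adult replicate 3 the calls of MYOD1, MYOG and MUSTN1 were lost (adjusted p up to 0.0917, 0.0726 and 0.0802), as were those of MYOD1 without old replicate 2 and of MYOG without old replicate 3, while HEY1 was called in all 9 fits.

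**Figure D3:**
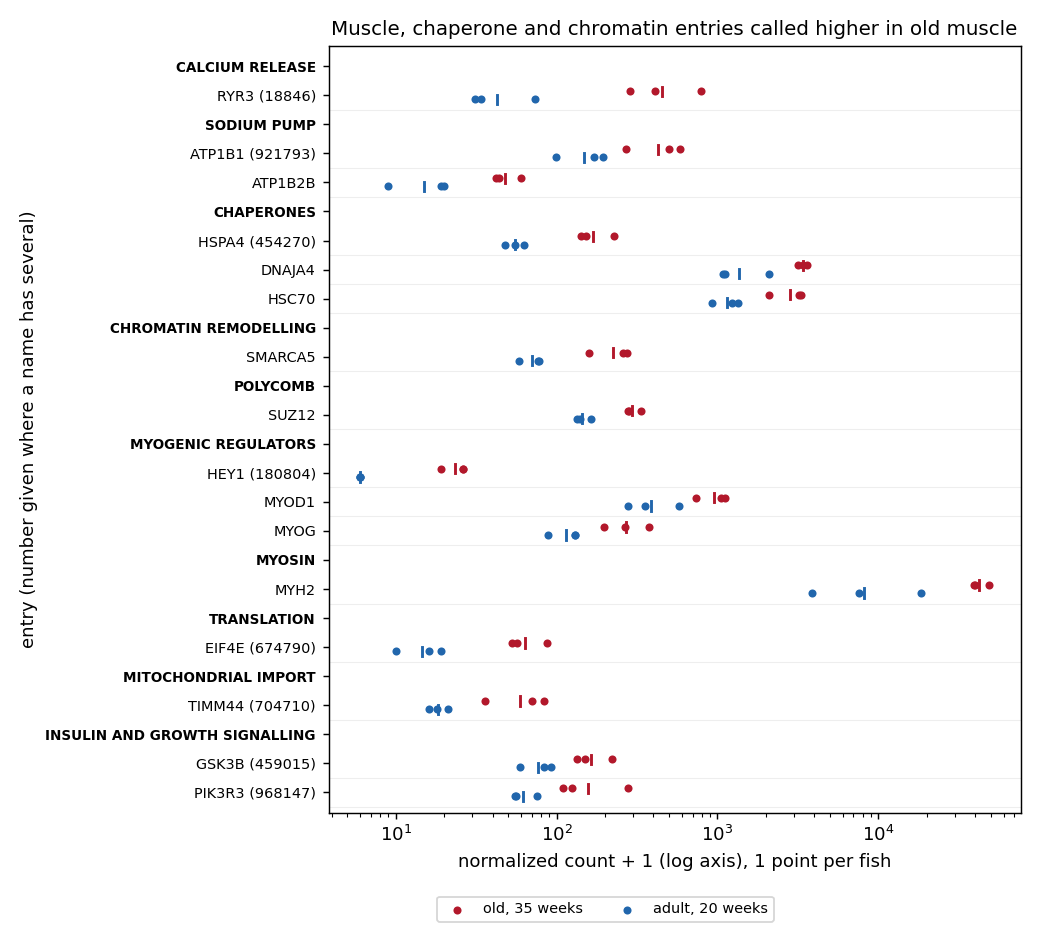
Normalized counts + 1 (x axis, log scale) of genes that were higher in old muscle, with 1 point per fish, the old group drawn above the adult group for each gene and a tick at the geometric mean of value + 1. MYH2 lies at 39589 to 48785 in old and 3893 to 18475 in adult fish, and for each gene shown every old point lies right of every adult point.

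Several chaperones were higher in old muscle. Of 75 tested entries of heat shock proteins and co-chaperones 3 were called higher and 0 lower (4.0%, against 2.09% of all tested entries). The median log2 fold change was 0.23, and 25 entries had old values entirely above the adult ones, against 4 entirely below (all tested entries: 10.7% above and 10.3% below). HSPA4, a nucleotide exchange factor of HSP70, had 140, 151 and 225 normalized counts in old and 62, 54 and 47 in adult libraries with entry 454270 (1.62, standard error 0.21, adjusted p = 0.00418). HSPA4 entry 482505 was not called (log2 fold changes of -0.08 to 0.2 over the 9 fits without 1 library). DNAJA4, a J-domain co-chaperone, had 3396, 3625 and 3160 in old and 2085, 1111 and 1080 in adult libraries (1.32, standard error 0.22, adjusted p = 0.0152), and HSC70, the constitutive HSP70, had 3289, 3228 and 2087 in old and 1341, 918 and 1228 in adult libraries (1.29, standard error 0.24, adjusted p = 0.0212). For each of these called entries the lowest old fish lay clearly above the highest adult fish, adult replicate 1 in all cases. HSP90AA1.1, the HSP90 of muscle fibers in zebrafish, had 6566, 8577 and 6220 in old and 4328, 2064 and 4954 in adult libraries without a call (0.99, adjusted p = 0.088), and its partner in myosin folding, UNC45B, had 1331, 1589 and 842 in old and 603, 238 and 739 in adult libraries (1.35, adjusted p = 0.071). MANF, a protein secreted under stress of the endoplasmic reticulum, was higher with 256, 221 and 302 in old and 148, 90 and 128 in adult libraries (1.1, adjusted p = 0.0216), whereas 2 other genes of stress in that compartment were lower: DDIT3, the factor CHOP, with 355, 329 and 208 in old and 480, 672 and 751 in adult libraries (-1.1, adjusted p = 0.0313), and CHAC1 entry 58493, which degrades glutathione, with 119, 132 and 87 in old and 496, 720 and 681 in adult libraries (-2.48, adjusted p = 0.0127). MANF, DDIT3 and CHAC1 were chosen after their values were seen. HSPA5, a chaperone of the same compartment, was not called with all 9 libraries (log2 fold changes of 0.96 to 1.47 over the 9 fits without 1 library). CHAC1 entry 952078 was not called (-1.13 to -0.42 over these fits). HSPA4 kept its call in each fit without 1 library. In fits without adult replicate 2 or 3 the calls of DNAJA4, HSC70, MANF, DDIT3 and CHAC1 were lost (adjusted p up to 0.122), HSC70 also without old replicate 2, MANF and DDIT3 without old replicate 3 and DDIT3 without young replicate 2 or 3, and with equal library totals the median of the list was 0.07 against -0.17 over all entries.

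In the lists of protein synthesis the shares called lay between 0 and 3.17%, on both sides of the 2.09% of all tested entries. Of 66 translation factors EIF4E was the single call (1.52%), 0 of 61 cytosolic ribosomal proteins were called with a median log2 fold change of -0.18, and of 63 mitochondrial ribosomal proteins 1 was called higher and 1 lower (3.17%). These were MRPS18A entry 274156, with 211, 375 and 159 normalized counts in old and 113, 50 and 47 in adult libraries (1.84, adjusted p = 0.0313), and MRPS21, with 121, 143 and 235 in old and 371, 338 and 467 in adult libraries (-1.28, adjusted p = 0.0264). Both were lost without old replicate 1 or 2 and adult replicate 2 or 3, and MRPS18A also without young replicate 1 or 3 (adjusted p up to 0.132). MRPS18A entry 264275 was not called with all 9 libraries (log2 fold changes of 0.9 to 1.11 over the 9 fits without 1 library). TFB2M entry 337699, a factor of mitochondrial transcription, was higher by less than 2-fold (127, 128 and 120 in old, 64, 63 and 81 in adult libraries, 0.85, adjusted p = 0.0302). Without adult replicate 2 its adjusted p was 0.118. TFB2M entry 810386 was not called (log2 fold changes of 0.4 to 0.87 over the 9 fits without 1 library).

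Since the study was concerned with chromatin, its enzymes were examined next. Of 91 tested entries of chromatin remodellers 1 was called higher and 0 lower (1.1%, against 2.09% of all tested entries). In this list 28 entries had old values entirely above and 6 entirely below the adult ones (10.7% and 10.3% of all tested entries). The median log2 fold change was 0.23. SMARCA5, the motor of the ISWI remodelling complexes, had 159, 272 and 257 normalized counts in old and 77, 57 and 76 in adult libraries (1.67, standard error 0.22, adjusted p = 0.00402). BRD2A, a reader of acetylated histones, had 987, 917 and 1102 in old and 467, 527 and 511 in adult libraries, just under the 2-fold limit (0.99, standard error 0.15, adjusted p = 0.00846). BPTF, a subunit of the NURF complex, had 452, 459 and 468 in old and 306, 293 and 241 in adult libraries for entry 261094 (0.72, adjusted p = 0.0256). BAZ1B, a partner of SMARCA5, had 415, 502 and 663 in old and 247, 353 and 273 in adult libraries (0.84, adjusted p = 0.0497). Without adult replicate 3 the adjusted p was 0.0979 for BPTF entry 261094 and 0.148 for BAZ1B. BPTF entries 375192, 527550 and 898664 were not called. Over the 9 fits without 1 library their log2 fold changes were 0.18 to 0.43, 0.32 to 0.5 and 0.52 to 0.66. Splicing factors gave 0 calls among 111 tested entries, with 18 entirely above and 4 entirely below, against 10.7% and 10.3% over all entries, and a median of 0.13. With equal library totals the medians were 0.06 for the remodellers and -0.03 for the splicing factors.

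Polycomb proteins place and read the repressive mark H3K27me3. Of 48 tested entries of polycomb and H3K27 demethylase genes 1 was called higher and 1 lower (4.17%, against 2.09% of all tested entries). The median log2 fold change was 0.16. SUZ12, a core subunit of the complex that writes the mark, had 275, 335 and 279 normalized counts in old and 162, 138 and 133 in adult libraries (1.03, standard error 0.16, adjusted p = 0.00846). Its paralog SUZ12B did not differ in this way (162, 180 and 149 in old, 147, 150 and 141 in adult libraries, 0.16, adjusted p = 0.575). EZH2, the methyltransferase of the complex, had 58, 75 and 46 in old and 31, 46 and 30 in adult libraries (0.73, adjusted p = 0.134), and EZH1 had 354, 282 and 292 against 359, 514 and 326 (-0.35, adjusted p = 0.373). ASXL2, a subunit of the complex that removes ubiquitin from H2A, was lower with 146, 97 and 90 in old and 197, 278 and 216 in adult libraries (-1.06, adjusted p = 0.0267). The demethylases KDM6B and KDM6BB were not called (-0.24 and -0.31). Without old replicate 2 or adult replicate 3 the change of SUZ12 was under 2-fold, at a log2 of 0.94 at the lowest, with adjusted p-values of at most 0.0478 in the 9 fits. Its call was lost with equal library totals (0.87, adjusted p = 0.0435) and with the 6 old and adult libraries alone (1.03, adjusted p = 0.0567), and the call of ASXL2 was lost without old replicate 2 or 3 and adult replicate 2 or 3 (up to 0.117).

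Other histone-modifying enzymes had 6 lower and 0 higher calls among 127 tested entries (4.72%, against 2.09% of all tested entries), with a median of -0.03. Of the 6 calls 5 carried the name KANSL3, a subunit of the NSL acetyltransferase complex. KANSL3 has 7 entries in the table, of which 6 were tested. Entry 305262, which had the smallest p of all entries, had 1, 1 and 1 normalized counts in old and 45, 96 and 82 in adult libraries, so that it was at least 24.8-fold lower (adjusted p = 5.29e-05). Entry 441154 had 45, 43 and 29 in old and 165, 507 and 367 in adult libraries (-3.0 log2, adjusted p = 0.00211), and entry 452323 had 0, 3 and 4 in old and 26, 34 and 35 in adult libraries (-3.58, adjusted p = 0.00846). The remaining called entries, 130915 and 305253, were at 0 to 6 in old and 7 to 30 in adult libraries. The tested entry without a call, 498869, had 9, 4 and 10 in old and 6, 8 and 6 in adult libraries (0.11, adjusted p = 0.914). In the young libraries entry 305262 had 56, 53 and 48. Since the annotation of this name covers several near copies, it is uncertain whether they are separate genes. The calls of entries 130915 and 305253 were lost without adult replicate 2 or 3 (adjusted p up to 0.0814 and 0.113), that of 305253 also without old replicate 3. KDM7A, a histone demethylase, was the sixth call with 59, 71 and 66 in old and 127, 175 and 142 in adult libraries for entry 627681 (-1.16, adjusted p = 0.0155), lost without adult replicate 2 or 3 (up to 0.0768). KDM7A entry 443294 was not called with all 9 libraries (log2 fold changes of -1.61 to -1.0 over the 9 fits without 1 library). None of 23 DNA methylation genes was called.

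Some entries with histone names were called, and they were not part of a list. HIST1H4I, a histone H4 name with 10 entries, was at 0 in the 3 old and at 12, 45 and 53 normalized counts in the adult libraries with entry 615046, at least 12.2-fold lower (adjusted p = 0.00137). Its other tested entries, 215200, 812590 and 156363, were not called (log2 fold changes of -0.61, -0.67 and 0.02), and the most abundant of them, 156363, had 83, 68 and 61 in old and 109, 69 and 44 in adult libraries. H1F0, the linker histone of cells that no longer divide, had 150, 106 and 35 in old and 306, 446 and 636 in adult libraries (log2 fold change -2.41, standard error 0.44, adjusted p = 0.0204). HIST2H3D, a histone H3 name, was lower with 2 of 3 tested entries, of which 975191 had 473, 189 and 248 in old and 532, 801 and 629 in adult libraries (-1.20, adjusted p = 0.049). Many histone messengers lack a poly(A) tail, and libraries of total RNA, as here, can hold such messengers. The call of H1F0 was lost without adult replicate 2 or 3 (adjusted p up to 0.0881), and those of HIST2H3D were kept only without old replicate 1 or adult replicate 1 and, for entry 821510, young replicate 1 (up to 0.174 in the other fits).

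Of 83 tested collagen entries 2 were called lower and 0 higher (2.41%, against 2.09% of all tested entries), and of 128 other matrix entries 3 were called lower and 1 higher (3.12%). Among the collagens 15 entries had old values entirely below and 0 entirely above the adult ones (all tested entries: 10.3% below and 10.7% above), and the median log2 fold change was -0.33. COL4A1, a basement membrane collagen, was at 0 in the 3 old and at 10, 8 and 8 normalized counts in the adult libraries with entry 944985, at least 2.89-fold lower (adjusted p = 0.00471), but its abundant entry 673082 had 1813, 2363 and 1630 against 2048, 1382 and 1879 (0.13, adjusted p = 0.736). COL11A2, a collagen of cartilage with 7 entries, had 0, 9 and 3 in old and 26, 26 and 42 in adult libraries with entry 141910 (-3.20, adjusted p = 0.0267). Entry 605297 had 74, 72 and 90 in old and 146, 159 and 109 in adult libraries, under the 2-fold limit and so not called (-0.79, adjusted p = 0.0463). Without adult replicate 2 the adjusted p of entry 605297 was 0.169. Entries 167060, 133929, 133936, 490802 and 487280 were not called with all 9 libraries. Over the 9 fits without 1 library their log2 fold changes were -1.9 to -1.5, -1.46 to -0.9, -1.97 to -1.24, -2.39 to -1.44 and -1.27 to 0.08. The main fibrillar collagen COL1A1A was not called and overlapped between the ages, with 8337, 23311 and 13672 in old and 20379, 11756 and 23393 in adult libraries (-0.36, adjusted p = 0.598). CTGF, a matricellular protein induced by TGF-beta and load, had 128, 113 and 250 in old and 512, 884 and 428 in adult libraries (-1.91, standard error 0.34, adjusted p = 0.0192). Against this direction, SERPINH1, the collagen chaperone HSP47, was higher with 146, 258 and 257 in old and 56, 54 and 90 in adult libraries (1.70, standard error 0.27, adjusted p = 0.0107). Beside the collagens, the summed level of the bone and cartilage markers, which share COL11A2 with them, was 4187 to 6998 in old and 7995 to 9482 in adult libraries; the part of such tissue in these changes was not tested. Without adult replicate 2 the calls of CTGF and SERPINH1 were lost (adjusted p = 0.0768 and 0.0583), and without adult replicate 3 that of COL11A2 entry 141910 (0.107), which was also lost without old replicate 3, adult replicate 2 or young replicate 3.

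F13A1, which encodes the A chain of coagulation factor XIII and is a marker of tissue macrophages in mammals, had the largest rise among the called entries, with 203, 1656 and 679 normalized counts in old and 76, 16 and 11 in adult libraries (log2 fold change 4.61, standard error 0.75, adjusted p = 0.0116). In each young library it was at 0. Adult replicate 1 was nearest to the old fish, and the call was lost without adult replicate 2 or 3 (adjusted p up to 0.064). Of the leukocyte markers 0 of 35 tested entries were called, against 2.09% of all tested entries, a share at which few calls fall in a list of this size. Their median was -0.40 log2. Old values lay entirely below the adult ones for 8 and entirely above for 1 of them (all tested entries: 10.3% below and 10.7% above). Their summed level was 1858 to 2456 in old and 2100 to 3738 in adult libraries. The largest drop among the called entries was that of CNTN1B, a neural adhesion protein, with 0, 121 and 0 in old and 175, 362 and 553 in adult libraries (-6.05, standard error 1.42, adjusted p = 0.0475), a size that depends on the constant added before the logarithm and a call kept only without old replicate 2 (up to 0.154 in the other fits).

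Of 62 tested inflammation entries 2 were called lower (3.23%) and of 39 interferon-response entries 1 (2.56%), near the 2.09% over all entries, and 0 were called higher in either list. TNFAIP3, an inhibitor of NF-kappaB, had 44, 47 and 52 normalized counts in old and 94, 134 and 108 in adult libraries (log2 fold change -1.20 with a standard error of 0.22, adjusted p = 0.02), and the other inflammation call was CEBPD. DTX3L, the interferon-response call, was at 7, 4 and 4 in old and 17, 21 and 14 in adult libraries (-1.63, adjusted p = 0.0408). PLAUR, the urokinase receptor, was at 0 in the 3 old and at 29, 30 and 19 in the adult libraries with entry 483323, at least 8.67-fold lower (adjusted p = 0.00137). None of 56 entries of JAK-STAT signaling and cytokine receptors was called, with a median of -0.20. The call of PLAUR held in each fit without 1 library, and those of TNFAIP3 and DTX3L were lost without adult replicate 2 or 3 (adjusted p up to 0.0861 and 0.165), DTX3L in every fit but that without old replicate 1.

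Genes of cell division were scarce at both ages. Of 83 tested cell cycle entries 2 were called lower and 0 higher (2.41%, against 2.09% of all tested entries), with a median of -0.29. These were CENPE entry 650078 (14, 8 and 6 normalized counts in old, 28, 22 and 23 in adult libraries, log2 fold change -1.36, adjusted p = 0.0462) and NCAPD3 entry 349115 (2, 0 and 0 in old, 6, 7 and 10 in adult libraries, adjusted p = 0.0315). This NCAPD3 entry had a mean of 4.17 over the 6 old and adult libraries. It passed the filter of 5 only through the young libraries (18, 18 and 16). CENPE entries 633290 and 751036 and NCAPD3 entry 110833 were not called. Over the 9 fits without 1 library their log2 fold changes were -0.97 to -0.39, -0.36 to 0.3 and -0.11 to 0.24. The summed level of the list was 2786 to 3156 in old and 2916 to 2951 in adult libraries. DNA replication genes gave 0 calls among 54. Of 90 tested DNA repair entries 1 was called higher and 1 lower (2.22%, against 2.09% of all tested entries). XPA, the damage verifier of nucleotide excision repair, was higher with 24, 19 and 26 in old and 4, 5 and 6 in adult libraries (2.00, standard error 0.31, adjusted p = 0.00904). RAD50, a subunit of the complex that senses double-strand breaks, was lower with 45, 19 and 48 in old and 120, 101 and 118 in adult libraries for entry 252494 (-1.68, standard error 0.30, adjusted p = 0.02). Of MYCN, 1 of 2 tested entries was lower, as was its antagonist MNT: MYCN entry 906938 had 452, 807 and 523 in old and 1643, 1404 and 1793 in adult libraries (-1.48, adjusted p = 0.00507), while MYCN entry 213588 was not called (85, 52 and 58 in old, 63, 61 and 52 in adult libraries, 0.12, adjusted p = 0.795), and MNT entry 117280 had 57, 43 and 68 in old and 182, 212 and 187 in adult libraries (-1.79, adjusted p = 0.0037). BCL2L1, an inhibitor of apoptosis, was lower with 84, 80 and 66 in old and 197, 299 and 224 in adult libraries (-1.62, standard error 0.20, adjusted p = 0.00305). RAD50, CENPE and NCAPD3 lost their calls without adult replicate 2 or 3 (adjusted p up to 0.0815, 0.125 and 0.123), CENPE without any library but old replicate 1 and NCAPD3 without any but old replicate 1 and adult replicate 1, while XPA, MYCN entry 906938, MNT and BCL2L1 kept theirs in each fit without 1 library. With the 6 old and adult libraries alone XPA was not called.

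A set of genes was also measured in the study with other assays. Of the 40 entries of these genes 34 were tested here. CDKN1A was called lower and SUZ12 and MYOG higher (8.82%, against 2.09% of all tested entries). The other 31 had no call, and the median log2 fold change over the list was -0.03. Since the study chose this list, its count is no independent evidence. CEBPB, a factor of inflammation, had 166, 53 and 230 normalized counts in old and 398, 578 and 288 in adult libraries (-1.67, adjusted p = 0.0839), and GADD45G, a stress-induced growth arrest gene, had with entry 274282 values of 55, 96 and 92 in old and 313, 219 and 235 in adult libraries (-1.67, adjusted p = 0.098). Neither gene overlapped between the ages, and neither passed the test. PCNA, the sliding clamp of replication, had 106, 178 and 127 in old and 112, 160 and 120 in adult libraries (0.05, adjusted p = 0.919), JAK3 had 33, 37 and 25 against 40, 56 and 37 (-0.47, adjusted p = 0.352), and CCNB1 had 6, 3 and 0 against 5, 10 and 1 (-0.75, adjusted p = 0.613). For the mitochondrial genes POLG and TFAM the log2 fold changes were -0.22 for POLG and 0.33 for TFAM entry 426883. Of the 3 calls, that of MYOG was lost without old replicate 3 or adult replicate 2 or 3 (adjusted p up to 0.0726), and SUZ12 missed the fold limit without old replicate 2 or adult replicate 3 (0.94 log2 at the lowest). With equal library totals and with the 6 old and adult libraries alone, both MYOG and SUZ12 lost their calls.

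Smaller groups added single calls. ERBB3B, a receptor for neuregulin on Schwann cells and at the neuromuscular junction, was lower with 62, 70 and 38 normalized counts in old and 129, 133 and 135 in adult libraries (log2 fold change -1.25, standard error 0.26, adjusted p = 0.0299). It was the call among 27 tested entries of the junction (3.7%, against 2.09% of all tested entries). BMP4, a growth factor of the TGF-beta family, was lower with entry 204857 at 39, 33 and 52 in old and 90, 91 and 82 in adult libraries (-1.09, adjusted p = 0.0253). It was the call among 113 tested entries of TGF-beta, BMP and Wnt signaling (0.885%, against 2.09% of all tested entries). BMP4 entry 786347 was not called (log2 fold changes of -1.38 to -0.39 over the 9 fits without 1 library). ESRRGA entry 519103, an estrogen-related receptor that drives mitochondrial genes in mammals, had 18, 9 and 6 in old and 2, 1 and 2 in adult libraries, at least 3.67-fold higher (adjusted p = 0.0457). None of 42 entries of the dystrophin complex and membrane repair and none of 37 entries of lipid and sterol synthesis was called, with medians of 0.03 and 0.24. The calls of ERBB3B, BMP4 and ESRRGA were lost without adult replicate 2 or 3 (adjusted p up to 0.11, 0.101 and 0.152), those of ERBB3B also without old replicate 3 and of BMP4 without old replicate 2, while ESRRGA was called only without old replicate 3.

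Several of the clearest single changes lay outside these groups. NADL1.2, an adhesion protein of the L1 family, had 58, 123 and 107 normalized counts in old and 731, 2306 and 1414 in adult libraries with entry 919000 (adjusted p = 0.00186, log2 fold change -3.85). NADL1.2 entries 896819, 946754 and 233880 were not called. Over the 9 fits without 1 library their log2 fold changes were -1.37 to -0.82, -0.76 to -0.17 and -0.77 to -0.68. NDR2 had 2, 1 and 1 in old and 17, 23 and 25 in adult libraries, at least 7.22-fold lower (adjusted p = 0.00211). TJAP1, a protein of tight junctions and the Golgi, had 1, 13 and 4 in old and 224, 123 and 339 in adult libraries for entry 481517 (-5.35, standard error 0.69, adjusted p = 0.00402). TJAP1 entries 54109 and 720915 were not called and did not show this drop. Over the 9 fits without 1 library their log2 fold changes were 0.33 to 0.87 and -0.37 to 0.32. Higher in old muscle were CLTCB, a clathrin heavy chain, with 123, 180 and 134 in old and 56, 29 and 39 in adult libraries (1.82, standard error 0.24, adjusted p = 0.00433), and TMEM41B, a lipid scramblase of the endoplasmic reticulum, with 95, 125 and 87 in old and 40, 34 and 30 in adult libraries (1.53, standard error 0.20, adjusted p = 0.00413). AMMECR1 and KLHL15 were higher by 1.41 and 1.33 log2. ZCCHC5, a name shared by 111 entries, was at 13, 8 and 10 in old and at 0 in the 3 adult libraries with entry 407995, at least 3.44-fold higher (adjusted p = 0.00471). Among the most abundant called entries, ARHGDIA was lower with 2910, 2082 and 2130 in old and 4505, 5805 and 7387 in adult libraries (-1.30, adjusted p = 0.0216), and YWHAG, a 14-3-3 adaptor, was higher with 1365, 1977 and 1212 in old and 819, 314 and 598 in adult libraries for entry 609002 (1.47, adjusted p = 0.0315). ARHGDIA was lost without old replicate 2 or 3 and adult replicate 2 or 3 (adjusted p up to 0.0908), and YWHAG entry 609002 was called only without adult replicate 1 (up to 0.0929 in the other fits). YWHAG entry 954455 was not called (log2 fold changes of 0.0 to 0.2 over the 9 fits without 1 library).

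Markers of other tissues that a muscle sample can contain were compared in the same way. The endothelial, fibroblast, erythrocyte, epidermis, slow and red fibre and abdominal organ lists had 0 calls each. The nerve, Schwann cell, smooth muscle and bone and cartilage lists had 1 each (1.92, 4.17, 8.33 and 2.63%, against 2.09% of all tested entries). Slow and red fibre markers had the lowest median (-1.14 log2 over 24 tested entries), with a summed level of 83066 to 141611 in old and 82740 to 129582 in adult libraries. Most of this sum came from MYH7 entry 815926, the slow heavy chain, which had 84673, 129479 and 70576 in old and 113528, 62257 and 114215 in adult libraries (-0.02, adjusted p = 0.979). MYH7 entries 387545, 377925 and 387464 were not called. Over the 9 fits without 1 library their log2 fold changes were -2.4 to -1.05, -2.98 to -0.47 and -2.62 to -0.33. Epidermis markers had a median of 0.73, and their sum was 7394 in old replicate 3, against 2136 to 2755 in the other old and 2307 to 2998 in the adult libraries. KRT17, a keratin of skin, had 448, 87 and 3112 in old and 179, 129 and 622 in adult libraries with entry 365577 (1.03, adjusted p = 0.621). Fibroblast sums ranged from 32182 to 79220 in old and from 38697 to 78299 in adult libraries, Schwann cell sums from 21536 to 25152 and from 16882 to 21975, and endothelial sums from 1475 to 1984 and from 1832 to 2098. The part of these cell types in the changes above was not tested.

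**Figure D4:**
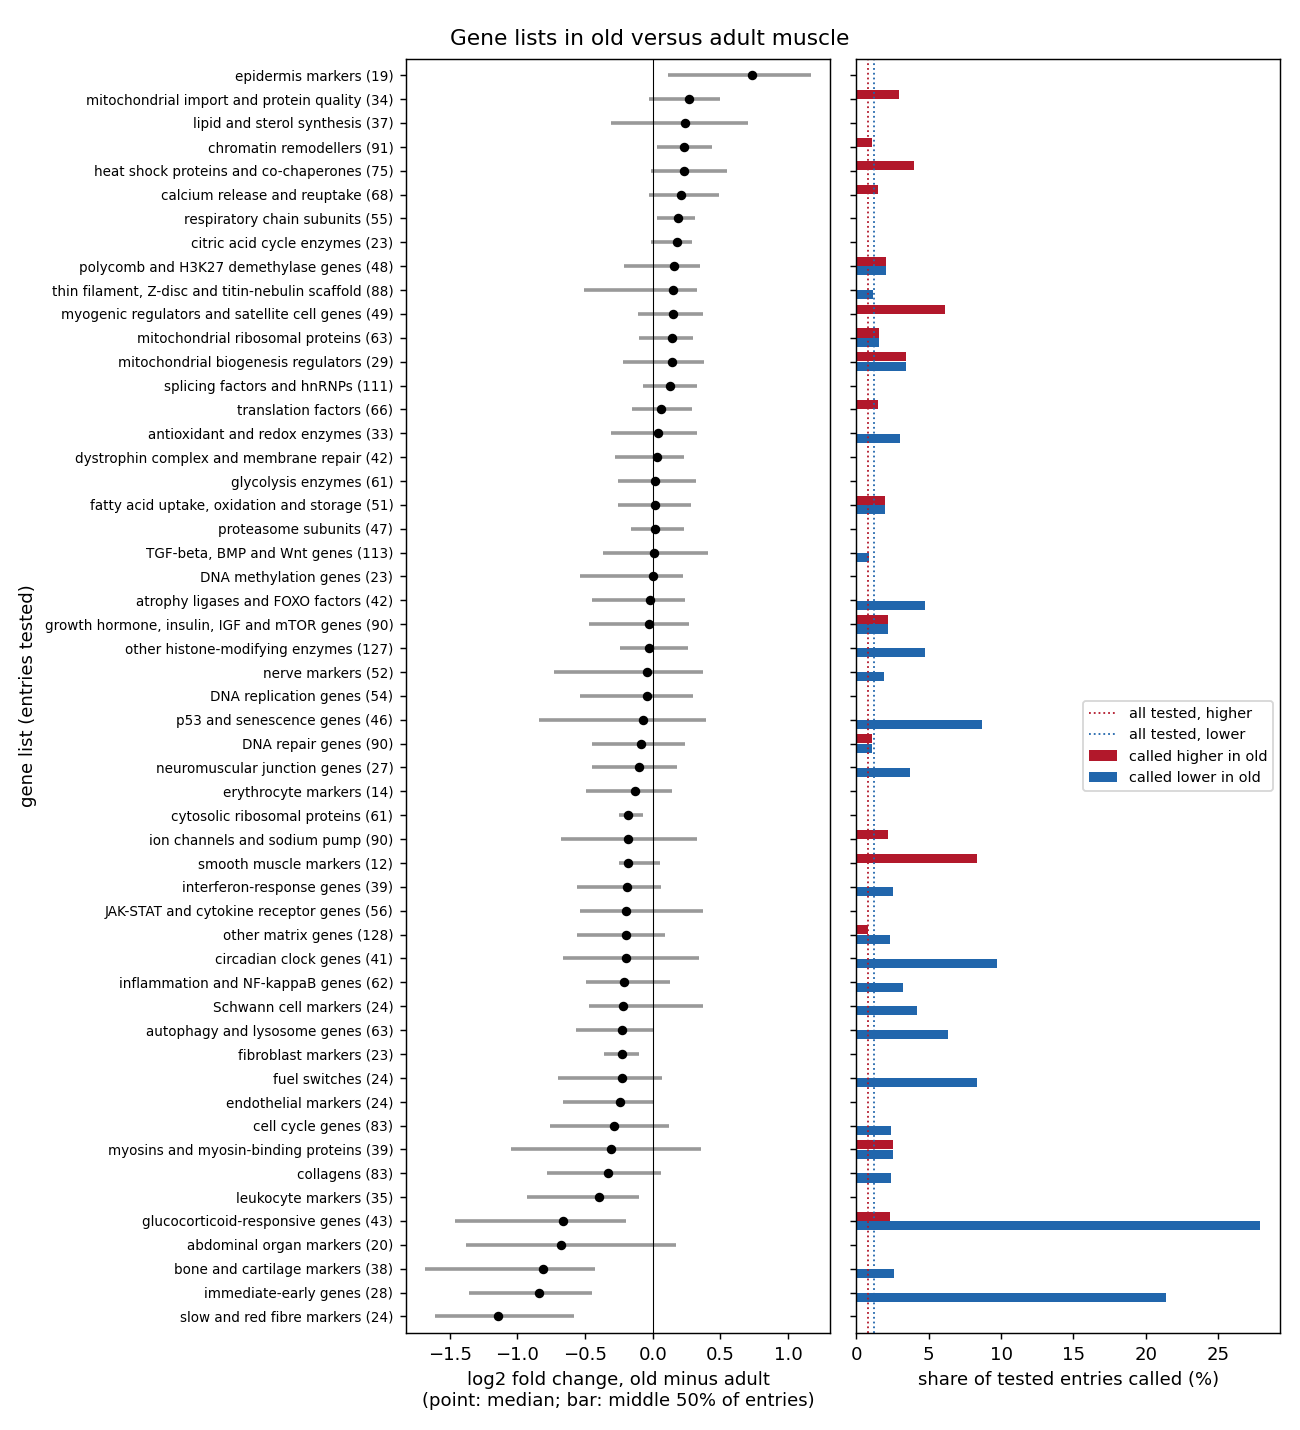
Gene lists in old versus adult muscle. Left, the median (point) and the middle 50% (line) of the log2 fold change of the tested entries of each list; right, the share of tested entries called higher and lower (percent), with dotted lines at the shares of all tested entries. The largest shares called lower are those of the glucocorticoid list (12 of 43 entries) and the immediate-early list (6 of 28). The clock list (4 of 41) lies close to the p53 and senescence list (4 of 46). The slow and red fibre list has the lowest median with 0 calls. The lists were chosen with earlier results of these data known.

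Adult values also entered the comparison with young fish, so the young values are given only side by side. Over the 144 entries called higher in old muscle, the median log2 fold change was 1.53 for old minus adult, -1.41 for adult minus young and 0.14 for old minus young, and over the 220 entries called lower these medians were -1.75, 1.51 and -0.38. The first 2 of these contrasts share the adult libraries with opposite signs, which by itself gives opposite values for entries chosen for a high or low adult level. The young fish had 83, 70 and 78 normalized counts of KLF9, 30, 67 and 38 of UCP2 and 185, 497 and 475 of CDKN1A. For MYH2 they had 57567, 94307 and 121533, and for SMARCA5 468, 482 and 464, above the old values of both genes. PRDM16 entry 204713, a zinc-finger factor of brown fat and fiber type in mouse, was higher in old muscle with 1252, 883 and 637 against 520, 142 and 184 in adult libraries (1.89, adjusted p = 0.0434), and the young fish had 108, 69 and 141. Its call was kept only without adult replicate 1 (adjusted p up to 0.165 in the other fits). PRDM16 entry 884877 was not called (log2 fold changes of 0.84 to 1.39 over the 9 fits without 1 library).

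The number of calls rested on single adult libraries. Leaving out adult replicate 2 left 90 called entries (27 higher and 63 lower) and leaving out adult replicate 3 left 91 (29 and 62), of which 84 and 86 were among the 364, whereas 538 were called without adult replicate 1 (264 and 274). Without an old library the counts were 251 to 401, and without a young library 240 to 276. In total 64 entries, 15 higher and 49 lower, were called in each of the 9 fits. The lower ones include KLF9, UCP2, CSRNP1B, SIK1 and ARRDC3A, and single entries of CDKN1A (316473), NR1D2 (544560), BHLHE40 (977955) and GLS2 (220820). The higher ones include SMARCA5 and XPA, and single entries of RYR3 (18846), HSPA4 (454270), EIF4E (674790), MFSD2A (613194) and HEY1 (180804). Other entries of NR1D2, GLS2, RYR3, HSPA4, EIF4E, MFSD2A and HEY1 were not called, and BHLHE40 entry 70007 lost its call in some of these fits. A fit of the 6 old and adult libraries alone called 75 entries (0.43%), 14 higher and 61 lower, of which 72 were among the 364. In that fit 8 glucocorticoid-responsive and 3 immediate-early entries were called lower. Of the entries named above, XPA, EIF4E entry 674790, HEY1 entry 180804 and NR1D2 entry 544560 were not called in it.

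**Figure D5:**
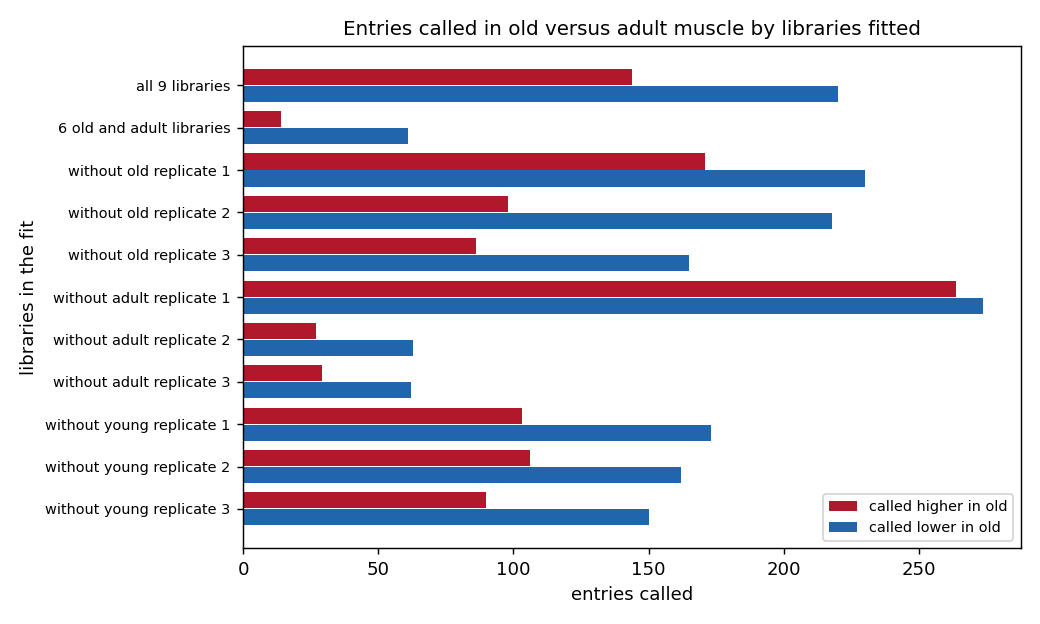
Number of entries called higher and lower in old muscle (bars) by the libraries that were fitted: all 9, all but 1, and the 6 old and adult libraries alone. The bars stand at 144 higher and 220 lower entries with all libraries, at 264 and 274 without adult replicate 1, at 27 and 63 without adult replicate 2 and at 29 and 62 without adult replicate 3.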

How the data were processed

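Values were taken from the deposited table of the RNA sequencing experiment, which holds 39396 entries (34352 with a numeric gene identifier and 5044 of Rfam) for 9 libraries, 3 each at 5, 20 and 35 weeks. The deposited values are a signal: the authors normalized the counts with DESeq and rounded them, so no count model was run. Per the submitters' processing notes and the methods, the authors trimmed stranded total RNA reads with Trimmomatic 0.33, aligned them with STAR 2.4.2a to the NotFur1 assembly and counted them with featureCounts 1.4.5-p1 of Subread. Reads that fit several genes or regions were excluded, so near copies are undercounted; 4933 symbols have more than 1 entry, and entries were kept apart. No 2 columns were identical, and 0 columns were left out.

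Values were not scaled again. Entries averaging 5 or more over all 9 libraries (17454) were transformed to log2(value + 1) and 21942 were not tested. A linear model with 1 mean per age was fitted to the 9 libraries with limma 3.58.1 in R 4.3.3 (eBayes with a trend, statmod 1.5.0), and the contrast old minus adult was adjusted by Benjamini-Hochberg over all tested entries. Calls needed an adjusted p no higher than 0.05 and a log2 change of 1 or more. Fold changes are on the log2(value + 1) scale, which understates those of low entries. Against a group with 3 or fewer in each library, a bound from a floor of 3 per library is given. The scripts were tested on simulated data. Tables and plots used Python 3.11.15, numpy 2.4.6, pandas 2.3.3, scipy 1.17.1 and matplotlib 3.10.9.

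The 54 gene lists were written from general knowledge and matched by name, and the lists as well as the comparison were chosen with earlier results of these data known. Lists are described by counts and medians only. Genes were named as the 12 calls of smallest p in each direction with a symbol and without overlap, up to 4 calls per direction of each list or its 2 most abundant members, the 5 most abundant calls in each direction, the tested genes of the study's other assays, and copies of these. Genes chosen after their values were seen were ZBTB16B, ARRDC2, FKBP5, BCL2L1, CCNG1, NR4A3, FOS, JUN, ZFAND5A, SLC25A30, SLC16A3, TNNI2, KLHL40, MUSTN1, HSP90AA1.1, UNC45B, MANF, DDIT3, CHAC1, TFB2M, BRD2A, BPTF, BAZ1B, KDM7A, H1F0, HIST2H3D, F13A1, CNTN1B, MYCN, MNT, TJAP1 and PRDM16. As alternatives the scaling, the filter, the added constant, the libraries in the fit, the test and the omission of each library were changed. The chromatin, protein and imaging data were not analysed here. The values of 1 entry called lower are not reported here.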

Additional observations from a re-analysis of the deposited data

How the results depend on the processing

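Of 115 named entries with a call, 75 lost it in the fit of the 6 old and adult libraries alone, 66 without adult replicate 2 and 69 without adult replicate 3. The largest losses were 79 without a filter on low values and 107 in a test against a 2-fold change. With recomputed factors, quantile normalization, a filter over the 6 libraries, constants of 0.5 or 5, robust moderation or no limit on the fold change, 344 to 462 entries were called. Equal library totals shifted the median of all entries to -0.17 and gave 85 higher and 219 lower calls, so that 28% of calls were higher in place of 39.6%; without the 20 most abundant entries in the totals the share was 33.2% and the median -0.09. Without a filter 125 entries were called (39 higher and 86 lower). With a mean of at least 50 there were 234, of which 137 were lower, and 2001 entries did not overlap between the ages. That filter tested fewer entries than the main fit, so these counts are not comparable with its 364 calls and 3666 entries without overlap. A test against a 2-fold change (treat) left 13 entries at an adjusted p of 0.05 or less, all lower, and 0 higher. At the same limit limma had 462 in either direction when no limit was set on the fold change. The 6 old and adult libraries alone gave 75 calls (14 higher and 61 lower). Precision weights per library gave 247 calls, 93 higher and 154 lower. Without 1 library the calls ranged from 90 to 538, the higher ones from 27 to 264 and the lower ones from 62 to 274. The deviations of old and adult libraries with the same replicate number correlated at 0.05, -0.08 and -0.07, and those with different numbers at -0.05 to 0.12. The labels do not say how the fish were numbered, and a batch shared by fish of the same number was not tested. With the replicate number as a block 254 entries were called, 96 higher and 158 lower. Depth limits the low entries: 70 of the higher and 91 of the lower calls had a mean under 50 over the 6 libraries, and old replicate 3, at 7.96 M reads on genes, was the shallowest library.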
